A study of Homo sapiens with 9 samples.

Results

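The heat shock chaperones of HEYA8 cells were followed here through 45 gene symbols of the HSP70, HSP90, J protein, BAG, small heat shock protein, TRiC and mitochondrial chaperone families, with their cochaperones and the heat shock factors. The rows were chosen by gene name, and they filled 46 of the 58735 rows of the count table, because HSPA14 is listed under 2 gene identifiers. Of those rows 45 passed the filter on low counts and were tested among 15232 genes, and CRYAB, a small heat shock protein, was left out with 0 to 3 counts per library. HEYA8 is a human ovarian carcinoma line, which the labels class as high-grade serous and give as wild type. Cells received DMSO as the vehicle, sunitinib or compound 32 for 24 h, and poly(A) RNA was sequenced from 3 libraries per group, all of which carry the same day label. Sunitinib is an inhibitor of several receptor tyrosine kinases. None of the sources used here gives the chemical identity of compound 32, its relation to sunitinib or the doses of both, so the comparison of the compounds is of these treatments as they were applied. The sunitinib and DMSO libraries are described as biological replicates, and the compound 32 libraries are not. The p-values rest on a spread within groups estimated over all 9 libraries together. Libraries outside a comparison therefore enter its p-values.

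HSP70 proteins bind unfolded stretches of other proteins and release them in cycles of ATP binding and hydrolysis. J proteins deliver the clients and stimulate hydrolysis, and BAG and HSP110 proteins exchange the nucleotide. HSP90 acts later on partly folded clients, many of them kinases and steroid receptors, together with a set of cochaperones that load clients or set the pace of its cycle. TRiC is a ring-shaped chaperonin that folds actin, tubulin and other cytosolic proteins, and HSPD1 with HSPE1 forms the chaperonin of the mitochondrial matrix. HSF1 is the transcription factor of the heat shock response; it binds as a trimer to repeats of the unit GAA and its complement TTC.

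The repeats of that unit are shown first because they are the sequence the family is best known for. RefSeq promoter windows on GRCh38.p14, each reaching from 250 bases before to 50 bases after a start, were matched for 40 of the 45 symbols. GAANNTTCNNGAA, or TTCNNGAANNTTC on the other strand, was found in windows of 8 of these 40 symbols and of 166 of all 27305 symbols (0.608%). The windows of the 8 symbols are those of HSPA8, HSP90AA1, HSP90AB1, CHORDC1, DNAJA1, DNAJB6, HSPD1 and SERPINH1, and HSPA8 and HSP90AB1 hold 2 matches each. The match of DNAJA1 lies past its start and is not printed. The stretches below run 5′ to 3′ on the strand of the gene, and capitals mark the matched repeats, including overlapping matches.
HSPA8, chr11:123062171-123062199 (-): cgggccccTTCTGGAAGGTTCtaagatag
HSPA8, chr11:123062346-123062374 (-): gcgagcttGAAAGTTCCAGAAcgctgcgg
HSP90AA1, chr14:102087112-102087140 (-): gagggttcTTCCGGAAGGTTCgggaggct
HSP90AB1, chr6:44247770-44247798 (+): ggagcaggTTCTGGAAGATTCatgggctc
HSP90AB1, chr6:44247823-44247851 (+): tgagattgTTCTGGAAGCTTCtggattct
CHORDC1, chr11:90223084-90223112 (-): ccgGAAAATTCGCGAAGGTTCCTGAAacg
HSPD1, chr2:197500062-197500090 (-): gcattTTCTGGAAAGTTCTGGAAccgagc
DNAJB6, chr7:157336865-157336893 (+): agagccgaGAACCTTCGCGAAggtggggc
SERPINH1, chr11:75562169-75562197 (+): ttccaactTTCCAGAAGTTTCtcgggacg

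A shorter form with 2 units, GAANNTTC or TTCNNGAA, was present in windows of 21 of the 40 symbols (52.5%) and of 16.2% of all symbols. The stress-inducible pair HSPA1A and HSPA1B is shown because the bases around its match are nearly the same, and the 250 bases before the starts of both genes were 93.6% identical.
HSPA1A, chr6:31815426-31815455 (+): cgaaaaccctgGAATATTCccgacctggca
HSPA1B, chr6:31827622-31827651 (+): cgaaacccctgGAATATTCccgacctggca
A match describes letters in a window and no binding was measured.

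Levels are given as CPM, each gene's reads scaled to a common library total after TMM factors, which adjust the totals for composition. Library totals ran from 15498101 to 18006171 counts. The third sunitinib library stood apart: ribosomal protein genes took 7.57% of its counts and 4.14 to 4.99% of the others, and mitochondrially encoded genes took 4.71% and 3.05 to 3.44%. Over all genes, its counts differed from those of the other sunitinib libraries with chi-square values per degree of freedom of 45.3 and 46.4, against 1.86 to 3.22 for all other pairs within a group. It read above both other sunitinib libraries in 36 of the 45 tested chaperone rows (80.0%) and in 41.4% of all tested genes. Counts of calls, and values whose call or size changed without this library, are therefore also given without it, and the part of its composition in the chaperone values was not tested. Of the marker lists, ovarian PAX8 (114 to 136 CPM) and the keratin KRT8 (625 to 904 CPM) were present in every library, EPCAM stayed at or below 2.53 CPM, and CDH1 and MUC16 were at or near 0. Mesenchymal markers summed to 4885 to 5854 CPM, led by VIM, while 5 leukocyte markers summed to at most 1.04 CPM, 4 fibroblast markers to at most 1.17 CPM and 3 endothelial markers to 5.43 to 17.3 CPM. KRT7 read 65.9 to 75.3 CPM in DMSO, 214 to 230 CPM under sunitinib and 63.9 to 70.1 CPM under compound 32. WT1, a factor of serous ovarian tumours, read 10.9 to 13.1, 4.70 to 5.45 and 9.43 to 11.4 CPM in the same order, and the endothelial cadherin CDH5 read 6.41 to 8.2, 11.4 to 15.3 and 3.82 to 4.45 CPM. At an adjusted p under 0.05 in edgeR, KRT7, WT1 and CDH5 changed under sunitinib, and ZEB1 fell (log2 fold change -0.33). Under compound 32, KRT7 and WT1 did not pass. CDH5 (-0.85), ZEB1 (-0.25) and AXL (-0.65) fell under compound 32, and KRT8 (0.31) and KRT18 (0.29) rose. The part of these markers in the chaperone results was not tested.

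Most of the chaperone genes were lower under sunitinib. Under compound 32 the count of lower rows was 9 of 45 with all libraries, against 10.3% of all genes. It was 20 of 45 (44.4%) without the third sunitinib library, against 20.5% of all genes, so both shares rose. Of the 45 rows, 32 fell under sunitinib (71.1%) at an adjusted p under 0.05 in edgeR's quasi-likelihood test, while 19.9% of all 15232 genes did. DNAJB2 and SERPINH1 rose (4.44%, against 20.3% of all genes), and 11 rows did not pass the test. The median log2 fold change of the rows was -0.45, against 0.02 over all genes tested. Without the third sunitinib library, 37 rows fell (82.2%) and 3 rose, against 26.3% and 25.1% of all genes, and the median was -0.51. With upper-quartile scaling, 3952 of all genes rose and 2316 fell in place of 3090 and 3036, and the chaperone median was -0.37.

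The decreases were moderate in size. Of the 32 rows that fell, 11 fell by at least 1.5-fold and none by 2-fold, and without the third sunitinib library the first HSPA14 row passed 2-fold. In 32 of the 45 rows every sunitinib library was below every DMSO library, which happened in 25.1% of all genes. In 3 of the 45 every sunitinib library was above, against 25.8%. The share of all counts taken by the chaperones was 2.64 to 2.66% in DMSO, 1.84, 1.85 and 2.10% under sunitinib and 2.30 to 2.34% under compound 32. Per base of gene length, the scale known as TPM, the shares were 2.54 to 2.59% in DMSO, 1.72 to 1.74% under sunitinib and 2.21 to 2.23% under compound 32. On that scale the third sunitinib library, at 1.72%, was the lowest and not the highest of its group. Where this library stands within its group thus depends on the scale, and for single genes its place is given in CPM. These shares are relative to the other RNA of the same cells, so a lower share and less chaperone RNA per cell cannot be told apart, and neither can fewer cells expressing a gene.

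**Figure D1:**
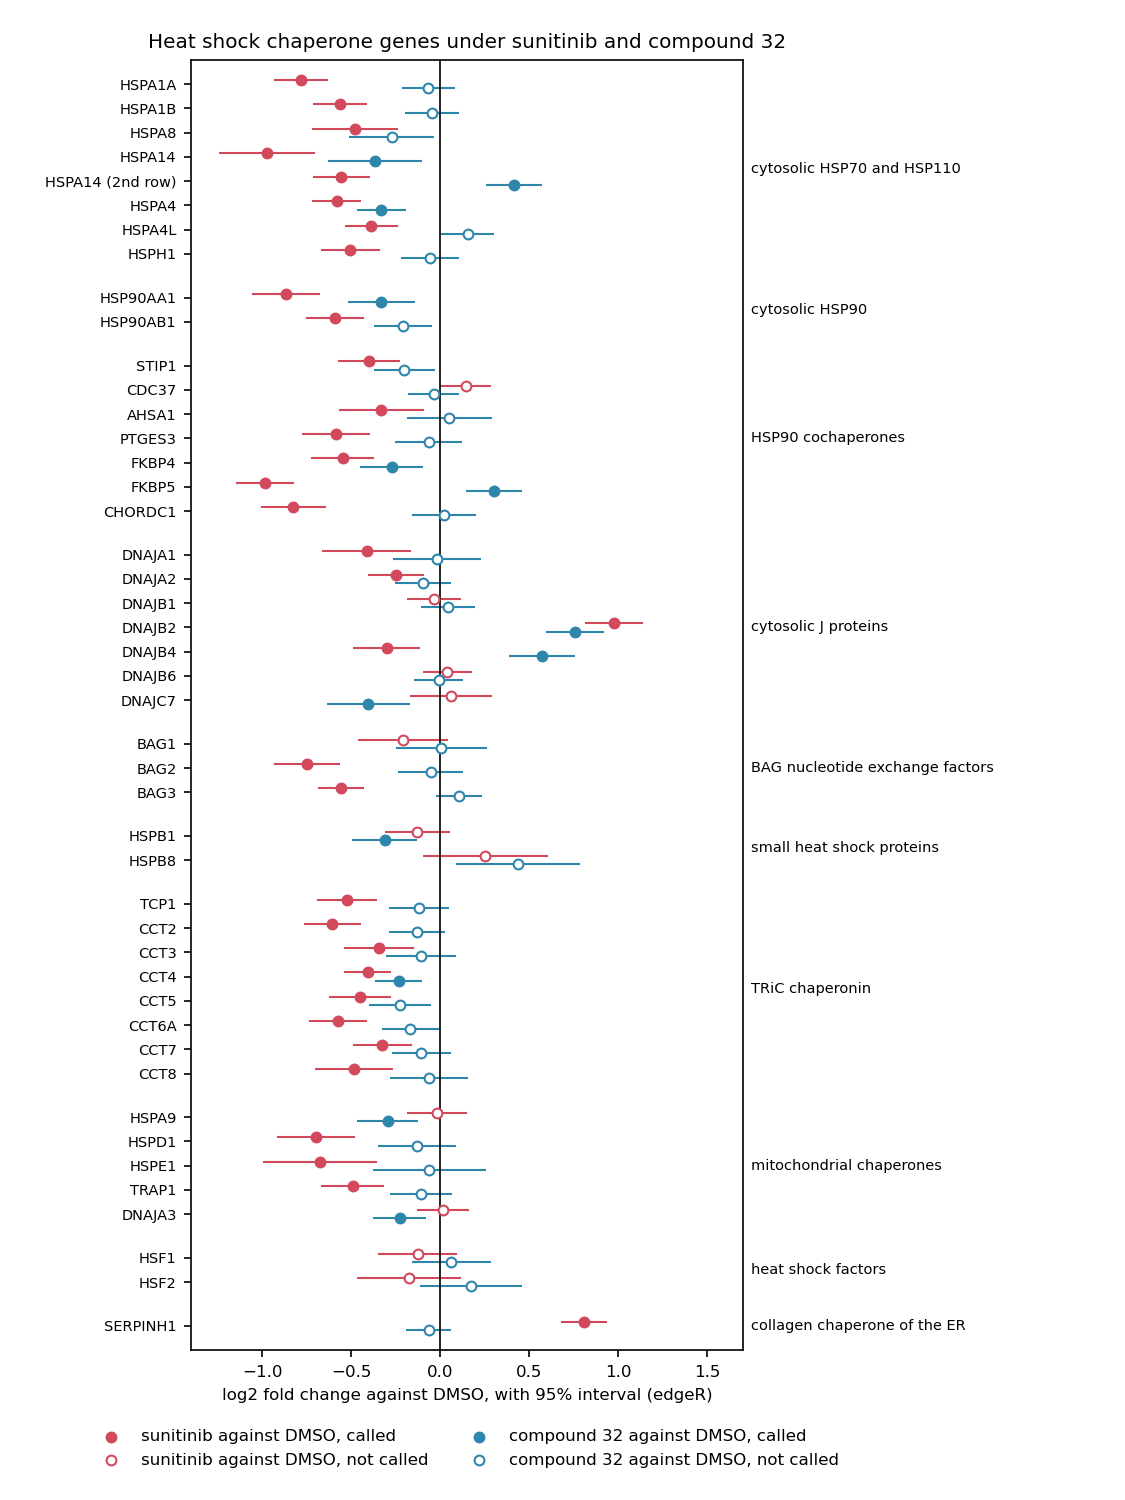
log2 fold change against DMSO of the 45 tested chaperone rows, ordered by class, for sunitinib (red) and compound 32 (blue), with 95% intervals from edgeR; filled points passed an adjusted p of 0.05. Red points lie left of 0 for the HSP70, HSP90, BAG and TRiC classes, and most blue points lie near 0.

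Cytosolic HSP70 and HSP110 genes fell as a complete class under sunitinib, 8 of 8 rows, with a median of -0.56. HSPA1A, one of the stress-inducible HSP70 genes, read 338, 324 and 318 CPM in DMSO, 181, 182 and 207 CPM under sunitinib and 310, 306 and 319 CPM under compound 32. All 3 sunitinib libraries were far below the other 6, and compound 32 overlapped DMSO. The log2 fold change of HSPA1A was -0.78 ± 0.07 (SE; edgeR adjusted p = 6.49e-06) under sunitinib and -0.07 ± 0.07 (adjusted p = 0.537) under compound 32. HSPA1B, its near copy on chromosome 6, read 115, 120 and 106 CPM in DMSO, 76.7, 81.6 and 72.2 CPM under sunitinib and 109, 111 and 110 CPM under compound 32. Its log2 fold change under sunitinib was -0.57 ± 0.07 (adjusted p = 8e-05), and the sunitinib group again did not overlap the others. Of the 50-base stretches of the HSPA1A and HSPA1B transcripts, 72.6% and 73.5% also occur in other genes, so how their reads were split between them is uncertain.

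HSPA8, the constitutive HSC70 and the most abundant HSP70 here, read 4305, 4464 and 4374 CPM in DMSO, 2783, 2820 and 3816 CPM under sunitinib and 3604, 3602 and 3668 CPM under compound 32. The third sunitinib library lay above all compound 32 libraries and below all DMSO libraries. The log2 fold change of HSPA8 was -0.48 ± 0.11 (adjusted p = 0.00489) under sunitinib and -0.65 without that library. Under compound 32 it was -0.27 ± 0.11 (adjusted p = 0.0995) with all libraries, and -0.27 with an adjusted p of 3.7e-12 when the third sunitinib library was left out. HSPH1, an HSP110 that exchanges the nucleotide of HSP70, read 921, 884 and 888 CPM in DMSO, 598, 598 and 700.5 CPM under sunitinib and 875, 871 and 844 CPM under compound 32. HSPH1 fell under sunitinib (-0.51 ± 0.08, adjusted p = 0.000308), and compound 32 lay just below DMSO without passing the test (-0.06 ± 0.08, adjusted p = 0.651).

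HSPA14, an HSP70 that works with ribosome-bound J proteins, gave different results on its 2 rows. The row ENSG00000187522 read 37.1, 39.3 and 34.8 CPM in DMSO, 16.6, 16.6 and 23.5 CPM under sunitinib and 29.5, 28.0 and 28.7 CPM under compound 32. It fell under both compounds, by 0.98 ± 0.12 on the log2 scale under sunitinib (adjusted p = 9.48e-05; by 1.16 without the third library) and by 0.37 ± 0.12 under compound 32 (adjusted p = 0.0481). The row ENSG00000284024 read 55.5, 50.4 and 57.0 CPM in DMSO, 37.2, 38.9 and 34.6 CPM under sunitinib and 72.4, 72.9 and 71.7 CPM under compound 32. This row fell under sunitinib (-0.56 ± 0.07, adjusted p = 0.000131) and rose under compound 32 (0.41 ± 0.07, adjusted p = 0.0019). The exons of the rows share 460 bases on the same strand, 17.4% of the first row and 9.34% of the second. The second row ends at base 14847018 of chromosome 10 and the first at 14871741. Most exon bases of the second row thus lie outside those of the first. Whether the second row reports an HSP70 product was not tested, and it is counted among the rows by its gene name only. HSPA4, an HSP110 member, fell under both compounds, by 0.58 ± 0.06 under sunitinib (adjusted p = 3.1e-05) and by 0.33 ± 0.06 under compound 32 (adjusted p = 0.00323). Its relative HSPA4L fell under sunitinib (-0.39 ± 0.07, adjusted p = 0.000914) and stood at 0.15 ± 0.07 under compound 32 (adjusted p = 0.126, and 0.0038 without the third sunitinib library).

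Both cytosolic HSP90 genes fell under sunitinib, with a median of -0.73. HSP90AA1, the more inducible isoform (chr14:102080738-102139699, minus strand, GRCh38), read 4493, 4428 and 4422 CPM in DMSO, 2265, 2266 and 2775 CPM under sunitinib and 3613, 3495 and 3503 CPM under compound 32. The groups did not overlap and stood in the order DMSO, compound 32, sunitinib. The log2 fold change was -0.87 ± 0.09 (adjusted p = 1.75e-05) under sunitinib and -0.33 ± 0.09 (adjusted p = 0.0183) under compound 32. HSP90AB1, the constitutive isoform (chr6:44246166-44253888, plus strand), read 4107, 4053 and 4113 CPM in DMSO, 2561, 2625 and 2949 CPM under sunitinib and 3569, 3472 and 3582 CPM under compound 32. Its libraries stood in the same order of groups. HSP90AB1 fell under sunitinib (-0.59 ± 0.07, adjusted p = 9.02e-05) and stood at -0.21 ± 0.07 under compound 32 (adjusted p = 0.0662, and 1.2e-08 without the third sunitinib library). The ratio of HSP90AA1 to HSP90AB1 counts within a library was 1.08 to 1.09 in DMSO, 0.884, 0.863 and 0.941 under sunitinib and 0.978 to 1.012 under compound 32. These ranges did not overlap.

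Of the 7 HSP90 cochaperones, 6 fell under sunitinib, with a class median of -0.55. FKBP5, an immunophilin cochaperone of steroid receptor complexes and itself a well-known glucocorticoid target, read 50.5, 44.97 and 48.5 CPM in DMSO, 23.2, 25.5 and 24.1 CPM under sunitinib and 57.4, 60.8 and 59.3 CPM under compound 32. The sunitinib libraries were lowest and the compound 32 libraries highest, with no overlap. FKBP5 fell under sunitinib (-0.98 ± 0.07, adjusted p = 2.04e-06) and rose under compound 32 (0.30 ± 0.07, adjusted p = 0.0108). FKBP4, the related immunophilin, read 312, 317 and 313 CPM in DMSO, 201, 199.5 and 244 CPM under sunitinib and 258, 253 and 267 CPM under compound 32. It fell under both compounds, by 0.55 ± 0.08 (adjusted p = 0.000263) and 0.27 ± 0.08 (adjusted p = 0.0298). The compound 32 libraries lay between the other groups.

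CHORDC1, a zinc-binding HSP90 partner whose promoter window holds the longest run of repeats printed above, read 266, 249 and 241 CPM in DMSO, 136, 130 and 161 CPM under sunitinib and 265.3, 251 and 252 CPM under compound 32. Sunitinib libraries were all below the rest, and compound 32 overlapped DMSO. CHORDC1 fell under sunitinib (-0.82 ± 0.08, adjusted p = 1.86e-05) and stood at 0.02 ± 0.08 under compound 32 (adjusted p = 0.887). PTGES3, the p23 cochaperone that stabilises closed HSP90, fell by 0.59 ± 0.09 (adjusted p = 0.000311). STIP1, which bridges HSP70 and HSP90, fell by 0.40 ± 0.08 (adjusted p = 0.00195). AHSA1, the activator of the HSP90 ATPase, fell by 0.33 ± 0.11 (adjusted p = 0.0304), with the third sunitinib library at 170.5 CPM beside 124 and 122, and by 0.51 without that library. CDC37, which brings kinases to HSP90, stood at 0.14 ± 0.06 (adjusted p = 0.0998), and at 0.10 (adjusted p = 0.0329) without that library.

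**Figure D2:**
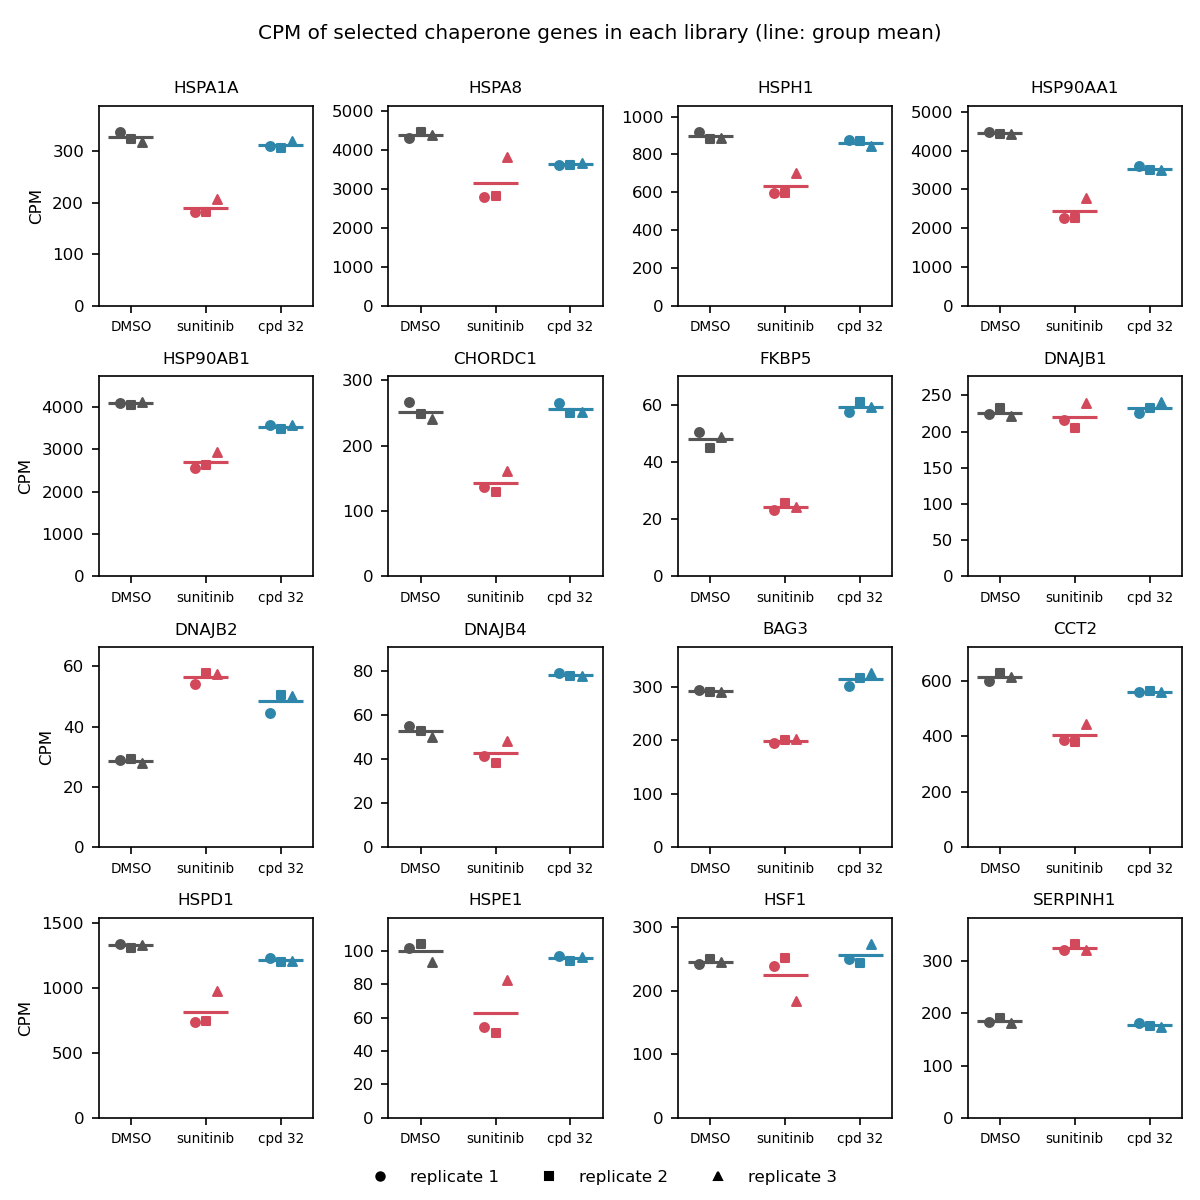
CPM of selected chaperone genes in each of the 9 libraries, by treatment. Symbols mark the replicate number, for which the labels state no pairing, short lines mark the group mean, and each y axis starts at 0. HSPA1A, HSP90AA1, CHORDC1 and HSPD1 are low in all 3 sunitinib libraries, DNAJB1 and HSF1 overlap between groups, and DNAJB2 and SERPINH1 are high under sunitinib.

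Among the 7 cytosolic J proteins, 3 fell and 1 rose under sunitinib, and the median was -0.04. DNAJB1, the HSP40 usually induced with HSPA1A, read 224, 232 and 221 CPM in DMSO, 217, 205 and 239 CPM under sunitinib and 225, 233 and 240 CPM under compound 32. The groups overlapped, and the log2 fold change of DNAJB1 was -0.04 (95% interval -0.19 to 0.12, adjusted p = 0.706) under sunitinib and 0.04 (-0.11 to 0.20, adjusted p = 0.705) under compound 32. Without the third sunitinib library DNAJB1 was lower under sunitinib, at -0.10 (adjusted p = 0.0457). DNAJB2, a J protein with ubiquitin-interacting motifs, read 28.8, 29.2 and 28.0 CPM in DMSO, 54.2, 57.8 and 57.5 CPM under sunitinib and 44.7, 50.5 and 50.2 CPM under compound 32. It rose under both, by 0.98 ± 0.07 (adjusted p = 2.01e-06) and 0.76 ± 0.07 (adjusted p = 3.41e-05), and was the only row that rose with both. DNAJB4, a relative of DNAJB1, read 55.3, 52.8 and 50.04 CPM in DMSO, 41.7, 38.1 and 48.5 CPM under sunitinib and 79.3, 78.2 and 77.8 CPM under compound 32. DNAJB4 fell under sunitinib (-0.30 ± 0.09, adjusted p = 0.0167) and rose under compound 32 (0.57 ± 0.09, adjusted p = 0.000729), with all compound 32 libraries above the rest.

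DNAJA1, a farnesylated J partner of HSPA8, read 491, 515 and 505 CPM in DMSO, 335, 333 and 468 CPM under sunitinib and 502, 483 and 507 CPM under compound 32. The third sunitinib library lay close to the DMSO range, and the log2 fold change was -0.41 ± 0.11 (adjusted p = 0.0133) with it and -0.60 without it. DNAJA2, a related type A J protein, fell by 0.25 ± 0.07 (adjusted p = 0.0173). DNAJC7, which carries tetratricopeptide repeats and binds both HSP70 and HSP90, stood at 0.06 ± 0.11 under sunitinib (adjusted p = 0.67), turned to -0.10 (adjusted p = 0.0559) without the third sunitinib library, and fell by 0.40 ± 0.11 under compound 32 (adjusted p = 0.0187). DNAJB6, an inhibitor of polyglutamine aggregation, stood within 0.04 of DMSO on the log2 scale under both compounds. Its window holds a match printed above.

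Of the BAG nucleotide exchange factors, BAG2 and BAG3 fell under sunitinib. BAG3, which links HSP70 to HSPB8 in selective autophagy, read 294, 290 and 291 CPM in DMSO, 194, 200 and 202 CPM under sunitinib and 302, 316 and 326 CPM under compound 32. In CPM the third sunitinib library did not stand apart here, while the spread in TPM was wider, at 278 ± 27.1 (SD). Compound 32 lay above all DMSO libraries in CPM. BAG3 was at -0.56 ± 0.06 (adjusted p = 2.69e-05) under sunitinib and 0.11 ± 0.06 (adjusted p = 0.223, and 0.0113 without the third sunitinib library) under compound 32. BAG2, which inhibits the ligase CHIP, read 91.3, 88.8 and 82.3 CPM in DMSO, 54.1, 46.6 and 55.3 CPM under sunitinib and 91.5, 80.4 and 81.0 CPM under compound 32. Its log2 fold change was -0.75 ± 0.09 under sunitinib (adjusted p = 4.41e-05). RAB23 covers 42.7% of the BAG2 exon bases on the other strand and fell as well (-0.36 ± 0.10), and none of the sources used here says whether the counting used strand. BAG1 stood at -0.21 ± 0.12 under sunitinib (adjusted p = 0.175), and at -0.33 (adjusted p = 0.000818) without the third library.

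With all libraries, neither of the tested small heat shock proteins passed the test under sunitinib. HSPB1, or HSP27, which holds unfolded proteins without ATP, read 245, 254 and 232 CPM in DMSO, 205, 210 and 254 CPM under sunitinib and 193, 193 and 203 CPM under compound 32. The third sunitinib library reached the top of the DMSO range, and the value was -0.13 ± 0.08 (adjusted p = 0.243) with it and -0.23 (adjusted p = 8.3e-06) without it. HSPB1 fell under compound 32 by 0.31 ± 0.08 (adjusted p = 0.0196). HSPB8, the BAG3 partner, was rare, at 4.54, 4.50 and 4.89 CPM in DMSO, 4.66, 5.27 and 6.76 CPM under sunitinib and 6.21, 5.82 and 6.81 CPM under compound 32. It stood at 0.25 ± 0.16 and 0.44 ± 0.16 (adjusted p = 0.23 and 0.0723), and the second p was 0.0205 without the third sunitinib library.

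All 8 tested TRiC subunit genes fell under sunitinib, within a narrow range of log2 fold changes from -0.61 to -0.33 and with a median of -0.47. CCT2 had the largest decrease, from 599, 628 and 614 CPM in DMSO to 386, 379 and 444 CPM under sunitinib, with 560, 562 and 559 CPM under compound 32. Its change under sunitinib was -0.61 ± 0.07 (adjusted p = 6.42e-05). CCT6A read 731, 741 and 725 CPM in DMSO, 460, 473 and 542 CPM under sunitinib and 668, 634 and 654 CPM under compound 32. CCT6A fell by 0.57 ± 0.07 (adjusted p = 0.000105). For both subunits the compound 32 libraries lay between the other groups without overlap.

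Under compound 32 every TRiC subunit had a negative value, from -0.23 to -0.06, and CCT4 was the one that passed the test. CCT4 read 470, 497 and 482 CPM in DMSO, 357, 358 and 377 CPM under sunitinib and 407, 407 and 419 CPM under compound 32. It fell by 0.41 ± 0.06 (adjusted p = 0.000297) and 0.23 ± 0.06 (adjusted p = 0.0173). CCT5 read 636, 655 and 646 CPM in DMSO, 448, 437 and 531 CPM under sunitinib and 557, 537 and 562 CPM under compound 32, and stood at -0.45 ± 0.08 (adjusted p = 0.000903) and -0.23 ± 0.08 (adjusted p = 0.0614). Without the third sunitinib library, 7 of the 8 subunits fell under compound 32. TCP1, CCT3, CCT7 and CCT8 fell under sunitinib by 0.52 ± 0.08, 0.34 ± 0.09, 0.33 ± 0.08 and 0.49 ± 0.10. Of the CCT5 transcript, 49.8% of 50-base stretches also occur in other genes, mainly an antisense transcript and pseudogenes.

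**Figure D3:**
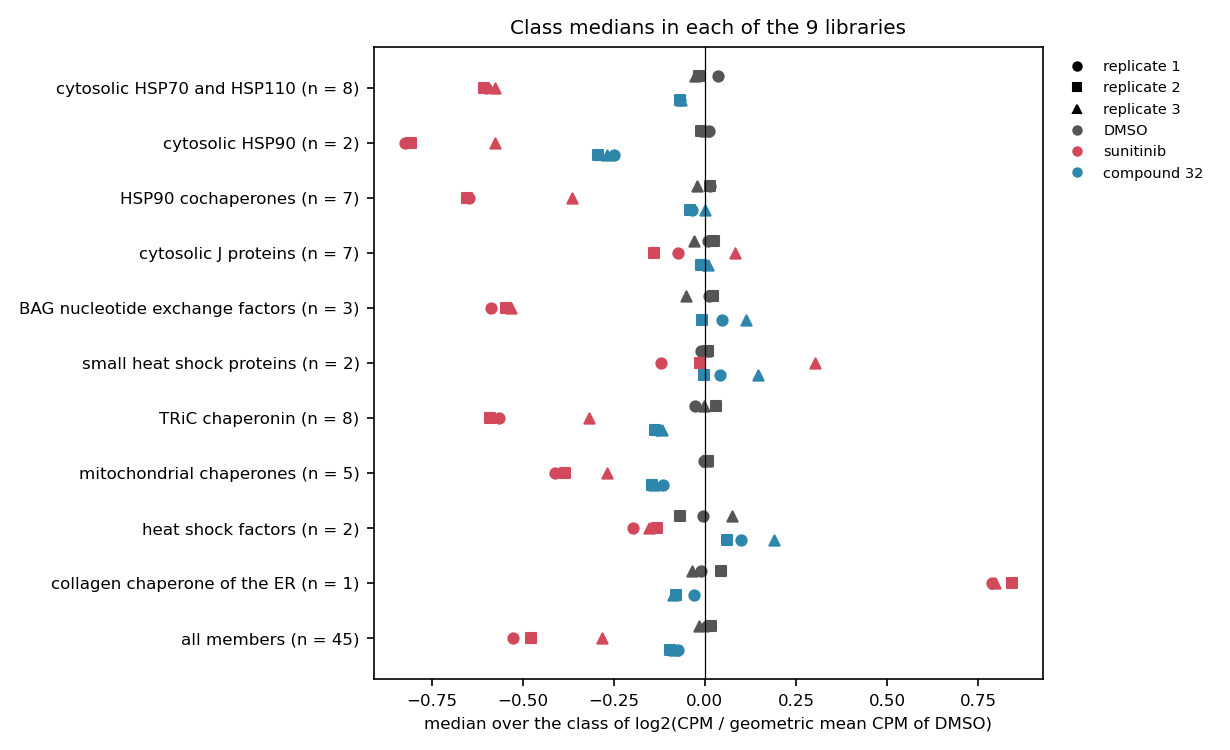
For each class and library, the median over the class of log2 CPM relative to the geometric mean of the DMSO libraries; colours mark the treatment and symbols the replicate number. The HSP90, cochaperone and TRiC medians of the third sunitinib library (triangles), at -0.58, -0.36 and -0.32, lie between DMSO and the other sunitinib libraries, while the HSP70 medians lie together at -0.61 to -0.58.

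Of the mitochondrial chaperones, the chaperonin pair and TRAP1 fell under sunitinib. HSPD1, or HSP60 (chr2:197486581-197516737, minus strand), read 1337, 1308 and 1331 CPM in DMSO, 733, 742 and 974 CPM under sunitinib and 1229, 1198 and 1204 CPM under compound 32. HSPE1, its HSP10 lid (chr2:197499994-197503457, plus strand), read 102, 104 and 93.3 CPM in DMSO, 54.1, 50.7 and 82.6 CPM under sunitinib and 96.7, 93.7 and 96.0 CPM under compound 32. The third sunitinib library was the highest of its group for both genes and still below every DMSO library. HSPD1 changed by -0.70 ± 0.10 (adjusted p = 0.000236) and HSPE1 by -0.68 ± 0.15 (adjusted p = 0.00361), and by -0.85 and -0.93 without that library. The genes run head to head and their exons share 281 bases on opposite strands, 14.2% of the HSPE1 exon bases. Of the HSPE1 transcript, 52.9% of 50-base stretches also occur in other genes, mainly HSPD1 and HSPE1-MOB4. How far HSPD1 reads enter the HSPE1 counts was not tested. TRAP1, the mitochondrial HSP90, fell by 0.49 ± 0.08 (adjusted p = 0.000593). DNASE1 overlaps 29.3% of the TRAP1 exon bases on the other strand and rose under sunitinib (0.49 ± 0.12, adjusted p = 0.007).

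HSPA9, the mitochondrial HSP70 that pulls in and folds imported proteins, was lower under compound 32, and under sunitinib it passed the test when the third library was left out. It read 599, 613 and 617 CPM in DMSO, 559, 572 and 676 CPM under sunitinib and 493, 501 and 496 CPM under compound 32. HSPA9 stood at -0.02 ± 0.08 under sunitinib (adjusted p = 0.881), at -0.11 (adjusted p = 0.00919) without that library, and fell under compound 32 (-0.30 ± 0.08, adjusted p = 0.0179). DNAJA3, its J partner, read 95.8, 92.8 and 99.1 CPM in DMSO, 95.5, 104 and 91.0 CPM under sunitinib and 83.8, 79.5 and 82.4 CPM under compound 32. DNAJA3 stood at 0.02 ± 0.07 (adjusted p = 0.87) and fell by 0.23 ± 0.07 (adjusted p = 0.0333). For both genes the compound 32 libraries were below all the others.

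With all libraries, the genes of the heat shock factors did not pass the test with either compound. HSF1 read 242, 250 and 246 CPM in DMSO, 240, 251 and 185 CPM under sunitinib and 251, 245 and 274 CPM under compound 32. The first and second sunitinib libraries lay close to DMSO and the third was the lowest of all 9. The log2 fold change of HSF1 was -0.13 (95% interval -0.35 to 0.09, adjusted p = 0.341) under sunitinib and 0.06 (-0.16 to 0.28, adjusted p = 0.723) under compound 32. HSF2, a related factor that can bind with HSF1, read 14.6, 13.0 and 16.02 CPM in DMSO, 11.3, 11.8 and 15.6 CPM under sunitinib and 16.3, 15.8 and 16.9 CPM under compound 32. Without the third sunitinib library HSF2 was lower under sunitinib (-0.33, adjusted p = 0.013), and with it the value was -0.18 ± 0.13 (adjusted p = 0.317). HSF1 is regulated mainly as a protein, and its activity was not measured here.

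SERPINH1, or HSP47, the collagen chaperone (chr11:75562056-75572783, plus strand), is a heat shock protein of the endoplasmic reticulum and not of the cytosol or mitochondria. It read 184, 191 and 181 CPM in DMSO, 320, 333 and 321 CPM under sunitinib and 181, 175 and 174 CPM under compound 32. All 3 sunitinib libraries were above the rest and close to each other in CPM, while their spread in TPM was wider, at 199 ± 23.6 (SD). SERPINH1 rose under sunitinib (0.81 ± 0.06, adjusted p = 1.42e-06) and stood at -0.07 ± 0.06 under compound 32 (adjusted p = 0.473).

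Of the 8 genes whose windows hold the longer motif, 6 fell under sunitinib and 1 rose, against 19.9% and 20.3% of all genes, and their median change on the log2 scale was -0.54. Of the 32 rows whose windows lack it, 22 fell and 1 rose, with a median of -0.39. These 32 include HSPA1A, HSPA1B, DNAJB1 and HSPB1, whose windows hold the shorter form. Lacking the exact longer motif therefore does not mean lacking repeats of the unit. HSPE1 is also among the 32, and the HSPD1 match printed above lies within the listed span of HSPE1. The remaining 5 rows, with no window, held 4 decreases. SERPINH1, with a match, was the 1 of the 8 that rose. Under compound 32, 1 of the 8 fell and 0 rose, and of the 32 rows whose windows lack the motif 6 fell and 3 rose, against 10.3% and 12.0% of all genes. The difference between rows with and without a match was not tested.

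Under compound 32, 9 of the 45 rows fell, against 10.3% of all genes, and 4 rose (8.89%), against 12.0%. The median log2 fold change was -0.07, against 0.00 over all genes tested. The genes that fell were HSPA4, the first HSPA14 row, HSP90AA1, FKBP4, DNAJC7, HSPB1, CCT4, HSPA9 and DNAJA3, and those that rose were DNAJB2, DNAJB4, FKBP5 and the second HSPA14 row. Every compound 32 library was below every DMSO library in 23 of the 45 rows, against 24.4% of all genes, and above in 6, against 24.7%. The number of calls depended on libraries outside the comparison. Without the third sunitinib library 20 rows fell (44.4%) and 7 rose (15.6%), against 20.5% and 21.6% of all genes. The rows added to those that fell were HSPA8, HSP90AB1, STIP1, HSPD1, TRAP1 and the TRiC genes TCP1, CCT2, CCT3, CCT5, CCT6A and CCT7. Without any 1 of the DMSO or compound 32 libraries, 1 to 3 of the 45 rows fell, against 6.17 to 6.60% of all genes. The most negative estimates were those of DNAJC7 and the first HSPA14 row, and no row fell by 1.5-fold.

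The comparisons with DMSO share their control libraries, so their calls are set side by side only. Both compounds lowered 5 of the 45 rows, against 3.74% of all genes. With a call under 1 compound only, 24 rows were lower under sunitinib, against 12.5%, and 4 under compound 32, against 4.67%. In 7 rows neither comparison passed, against 49.4% of all genes. The 5 were HSPA4, the first HSPA14 row, HSP90AA1, FKBP4 and CCT4. Opposite calls were made for 3 rows, FKBP5, DNAJB4 and the second HSPA14 row, where 5.56% of all genes had them. Without the third sunitinib library, 18 of the 45 rows were lower with both, against 8.42% of all genes.

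Compound 32 was compared with sunitinib directly. DMSO values are not part of this difference, but the DMSO libraries enter the shared estimate of the spread, and 26 to 29 rows were higher when 1 of them was left out and 25 when all 3 were. Of the 45 rows, 30 were higher under compound 32 (66.7%), against 24.1% of all genes, and 6 were lower (13.3%), against 25.2%. The median log2 difference was 0.38. In 30 of the 45 rows every compound 32 library was above every sunitinib library, against 27.8% of all genes. Without the third sunitinib library 35 rows were higher (77.8%) and 6 lower (13.3%), against 29.7% and 29.0% of all genes. The median was then 0.45.

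FKBP5 had the largest difference, 1.29 ± 0.07 (adjusted p = 1.27e-07), and was the one row past 2-fold. The second HSPA14 row (0.97 ± 0.07), DNAJB4 (0.87 ± 0.09), CHORDC1 (0.85 ± 0.08), HSPA1A (0.71 ± 0.07), BAG2 (0.70 ± 0.09) and BAG3 (0.66 ± 0.06) followed. HSP90AA1 was higher by 0.54 ± 0.09 (adjusted p = 0.000358) and HSPD1 by 0.57 ± 0.10 (adjusted p = 0.000665). All 8 TRiC subunits were higher, by 0.17 to 0.47. The 6 rows that were lower under compound 32 were SERPINH1 (-0.87 ± 0.06, adjusted p = 3.82e-07), DNAJC7 (-0.47 ± 0.11), HSPA9 (-0.28 ± 0.08), DNAJA3 (-0.24 ± 0.07), DNAJB2 (-0.22 ± 0.07) and CDC37 (-0.18 ± 0.07).

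Other genes did not pass the test between the compounds with all libraries. HSPA8 differed by 0.21 (95% interval -0.03 to 0.45, adjusted p = 0.14), and by 0.38 (adjusted p = 1.2e-15) without the third sunitinib library. STIP1 differed by 0.20 (0.03 to 0.37, adjusted p = 0.0545), and by 0.30 (adjusted p = 4.2e-10) without that library. For STIP1 every compound 32 library was above every sunitinib library. DNAJB1 differed by 0.08 (-0.07 to 0.23, adjusted p = 0.358), and by 0.15 (adjusted p = 0.00276) without that library, and DNAJB6 by -0.05 (-0.19 to 0.09, adjusted p = 0.542). HSF1 differed by 0.19 (-0.03 to 0.41, adjusted p = 0.145). DNAJA2 and BAG1 also passed without that library, at 0.22 and 0.34.

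**Figure D4:**
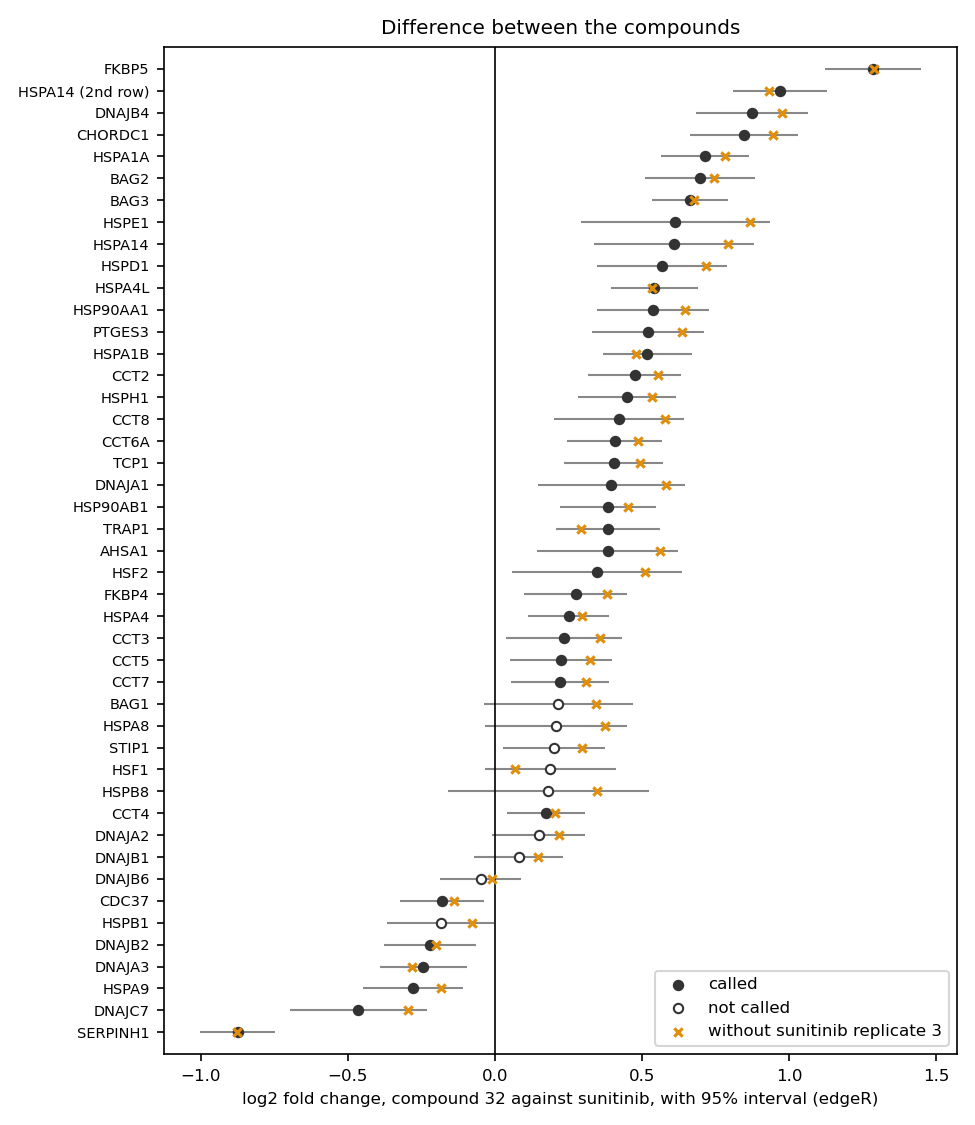
log2 fold change of compound 32 against sunitinib for the 45 tested rows in order of size, with 95% intervals from edgeR; filled points passed an adjusted p of 0.05 and crosses give the value without sunitinib replicate 3. FKBP5 lies at 1.29 and SERPINH1 at -0.87, and the crosses stay on the same side of 0 for every row that passed.

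Levels between genes were compared per length, in TPM. The order in DMSO was led by HSP90AB1 at 5423 ± 114 TPM (SD, n = 3), rank 15 of all genes, HSPA8 at 3568 ± 25.5 and HSP90AA1 at 3348 ± 64.8. HSPD1 followed at 1233 ± 30.6 and PTGES3 at 906 ± 19.0. The TRiC subunits, which assemble into the same ring, lay within 437 to 741 TPM. At the low end stood BAG1 (18.7 ± 1.92), FKBP5 (17.8 ± 1.26) and HSPB8 (6.41 ± 0.346), and BAG1 and FKBP5 did not differ beyond their spread.

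Under sunitinib HSP90AB1 stood at 3481 ± 138 TPM, HSPA8 at 2457 ± 162 and HSP90AA1 at 1770 ± 10.7, so these 3 stood in the same order. Under compound 32 they stood at 4602 ± 45.5, 2895 ± 10.6 and 2610 ± 57.0 TPM. HSPA1A, at 520 ± 19.6 TPM in DMSO, stood at 293 ± 11.5 under sunitinib and 486 ± 5.41 under compound 32, within the range of the TRiC subunits in DMSO and just below theirs under sunitinib. The TRiC subunits ran from 305 to 536 TPM over the sunitinib libraries and from 360 to 664 TPM over the compound 32 libraries. SERPINH1 moved the other way, from 116 ± 2.03 TPM in DMSO to 199 ± 23.6 under sunitinib.

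**Figure D5:**
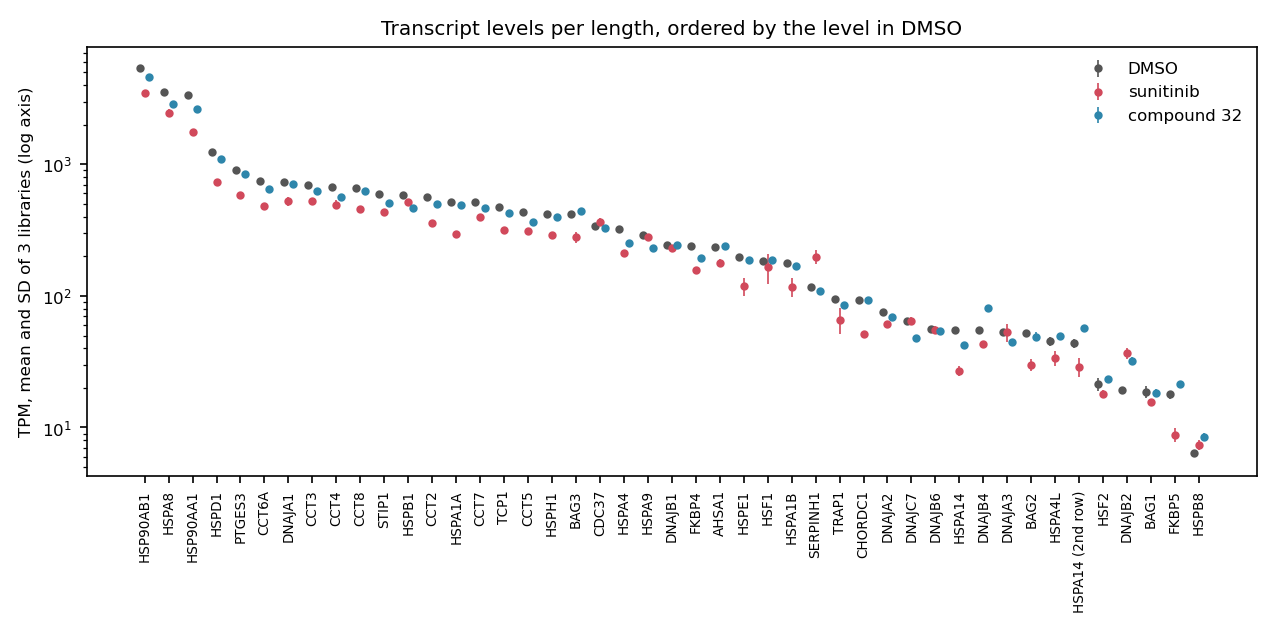
Mean TPM of each tested chaperone row by treatment on a log axis, ordered by the level in DMSO, with SD over 3 libraries; CRYAB is not drawn. Levels run from 5423 TPM for HSP90AB1 to 6.41 TPM for HSPB8 in DMSO.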

How the data were processed

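Counts per gene (whole reads, not normalized) were deposited for 9 libraries with a union exon length per gene. Per the submitters' processing notes, fastp, HISAT2 2.0.5, featureCounts, DESeq2 and edgeR were used and the builds hg38 and mm10 are named; none of the sources used here gives strand or multi-mapping settings. All 58735 gene identifiers, names, coordinates and lengths equal those of GENCODE 29. Genes were filtered with filterByExpr, scaled with TMM and tested with edgeR 4.0.16 (robust quasi-likelihood F test, R 4.3.3) on 3 group means over all 9 libraries, with Benjamini-Hochberg adjustment over 15232 genes, called at 0.05. The self-test on simulated counts for sunitinib against DMSO (15232 genes, 50 changed per fold) recovered 54% of genes changed 1.5-fold and 72% at 2-fold. At 3-fold and 4-fold it recovered 92% and 88%. Recovery was not measured for the chaperone rows separately. Members and lists were chosen with earlier results of these data known. Library values are given for, per class, the 2 members with the largest absolute change in each comparison with DMSO, a set of well-known chaperones, and members with opposite calls; outside the members, the 4 genes with the smallest p per comparison. Intervals are 95%. Alternatives were RLE, upper-quartile and total-count scaling, DESeq2 1.42.0, other filters and thresholds, the compared libraries only, a replicate block and leaving out each library.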

Additional observations from a re-analysis of the deposited data

How the results depend on the processing

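The decreases under sunitinib kept their direction and side of the threshold in 29 to 32 of 32 rows under every scaling, DESeq2, filter, block and left-out library tried, and in 27 at an adjusted p under 0.01; AHSA1, DNAJA2 and DNAJB4 were lost most often. Leaving out 1 library gave 29 to 37 lower rows, 2 to 3 higher and medians of -0.51 to -0.40. Upper-quartile factors moved the median of all genes to 0.10 (sunitinib against DMSO) and -0.12 (compound 32 against sunitinib), and the chaperone medians to -0.37 and 0.30. For compound 32 against DMSO, lower rows numbered 20 and higher rows 7 with only the 6 libraries compared, and 1 was lower at an adjusted p under 0.01. Leaving out 1 library gave 1 to 20 lower (2, 1 and 3 without DMSO replicates 1, 2 and 3; 1, 1 and 2 without compound 32 replicates 1, 2 and 3; 20 without sunitinib replicate 3), 3 to 7 higher and medians of -0.10 to -0.06. For compound 32 against sunitinib, 3 rows were lower without a filter on low counts and 2 at an adjusted p under 0.01, and leaving out 1 library gave 23 to 35 higher, 4 to 7 lower and medians of 0.30 to 0.45. The cause of these shifts was not tested.

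Signs turned for values near 0, given as log2 fold changes. DNAJB1 under sunitinib stood at 0.047 with upper-quartile factors, 0.019 with library totals, 0.017 when genes under a mean of 5 CPM were dropped and -0.10 to 0.0085 with 1 library left out, and its difference between the compounds at -0.0062 with upper-quartile factors. HSPA9 under sunitinib stood at 0.066, 0.038 and 0.036 under the same 3 choices and at -0.11 to 0.030 with 1 library left out. DNAJA3 stood at -0.020 without a filter and -0.045 to 0.057 with 1 library left out, and HSPB11 at -0.0071 and -0.22 to 0.14, with an adjusted p of 0.0351 for -0.22 without sunitinib replicate 3. DNAJC7 under sunitinib stood at -0.10 to 0.15 with 1 library left out. Under compound 32, DNAJB6 stood at 0.0015 when genes under a mean of 5 CPM were dropped and at -0.0426 to 0.0135 with 1 library left out, and BAG1 at -0.062 to 0.1; leaving out 1 library gave CHORDC1 values of -0.013 to 0.059 and DNAJA4 values of -0.071 to 0.040.

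The labels state no pairing of samples by replicate number. Same-numbered libraries had correlations of their deviations of -0.08 to 0.06, and differently numbered libraries of -0.06 to 0.09. With 3 libraries per group these correlations cannot exclude a pairing. With the replicate block, 32 rows were lower under sunitinib, 7 under compound 32 against DMSO (HSPA14 and DNAJA3 were lost), and 29 were higher and 5 lower in compound 32 against sunitinib. Depth limits HSPB8 and HSF2 most, and with 3 libraries per group small changes may be missed.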

Other observations

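Other chaperone genes, taken from lists of 98 names outside the 45 symbols, were counted the same way. Of 89 tested, 19 fell and 12 rose under sunitinib, against 19.9% and 20.3% of all genes, with a median of -0.09 on the log2 scale. Under compound 32, 8 fell and 9 rose, against 10.3% and 12.0%, with a median of -0.04. Without the third sunitinib library, 39 fell and 14 rose under sunitinib, against 26.3% and 25.1% of all genes. For the lists that follow, with all libraries, the shares of all genes under sunitinib are the same 19.9% and 20.3%. Among 28 other J proteins, 8 fell and 2 rose under sunitinib. Among 20 other HSP70 and HSP90 cochaperones, 5 fell and 1 rose, and among 14 tested mitochondrial import, folding and protease genes, 3 fell and 4 rose.

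DNAJC9, a nuclear J protein that chaperones histones, read 48.4, 49.7 and 49.4 CPM in DMSO, 30.6, 34.8 and 32.6 CPM under sunitinib and 58.6, 54.1 and 62.3 CPM under compound 32. It fell under sunitinib (-0.59 ± 0.08, edgeR adjusted p = 0.000124) and rose under compound 32 (0.25 ± 0.08, adjusted p = 0.0368). LONP1, the protease of the mitochondrial matrix, rose under sunitinib by 0.52 ± 0.07 (adjusted p = 0.000135), from 137 to 141 CPM in DMSO to 182 to 210 CPM. CLPB, a mitochondrial disaggregase, fell under sunitinib (-0.51 ± 0.07, adjusted p = 0.000162), as did DNAJA4, a type A J protein (-0.64 ± 0.09, adjusted p = 0.000245).

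Under compound 32 the genes with the smallest p were JMJD6, a Jumonji-domain hydroxylase (0.44 ± 0.08, adjusted p = 0.0022), DEDD2 (0.41 ± 0.08, adjusted p = 0.00442), HSPA12A, a divergent HSP70 (0.53 ± 0.11, adjusted p = 0.00627), and HSPB11 (0.63 ± 0.15, adjusted p = 0.0102), all higher in each compound 32 library than in each DMSO library.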
